A study of Mus musculus with 4 samples.

Results

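Class IIa histone deacetylases are encoded in the mouse by Hdac4, Hdac5, Hdac7 and Hdac9, and the Pax7 peaks described here are those at these 4 genes. A peak was included when its summit, the position of highest signal, lay between 100 kb before the start and 100 kb after the end of the gene in the GENCODE vM1 annotation of NCBIM37 (mm9). By this rule 18 of the 20579 deposited Pax7 peaks belonged to the 4 genes, 7 to Hdac4, 7 to Hdac5, 2 to Hdac7 and 2 to Hdac9. The family was selected on the fold enrichment of the strong peak at the Hdac5 promoter, so the values of that peak, and everything that rests on it, are given as a description without a test.

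Binding of Pax7 was mapped by ChIP-seq, a method in which DNA bound by a protein is recovered with an antibody and sequenced. The cells were iPax7 muscle progenitors, derived from mouse ES cells in which doxycycline (Dox) switches on a Pax7 transgene, so binding was measured with Pax7 expressed from this transgene. Dox was given at 1 µg/ml from day 3 of differentiation in serum, PDGFRα+FLK1- cells were sorted on day 5, and the cells were harvested on day 9 after 6 days of Dox. All libraries, 2 of Pax7 ChIP and 2 of input DNA, came from Dox-treated cells, and the authors pooled each kind before calling peaks. A peak therefore has no replicate error, and cells without Dox were not analysed here.

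Class IIa histone deacetylases have little deacetylase activity of their own. They bind MEF2 transcription factors on DNA and recruit corepressor complexes together with Hdac3, which keeps MEF2 target genes silent. Calcium- and stress-activated kinases phosphorylate them, 14-3-3 proteins then carry them out of the nucleus, and in the muscle lineage this release allows MEF2 and the myogenic bHLH factors to drive differentiation. Pax7 is a transcription factor of muscle stem cells and progenitors that contacts DNA through a paired domain and a homeodomain.

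The sequences of the summits on which the results turn are shown first. Each covers 101 bases centred on a summit, was read from the NCBIM37 genome and is written 5′ to 3′ on the minus strand, from which all 4 genes are transcribed. The first 3 are the peaks nearest to a start site of a class IIa gene, and capitals mark the paired-box core GTCACG, which was present in the first alone. The Hdac5 peak is at chr11:102091554-102091654, the Hdac9 peak at chr12:35213836-35213936 and the Hdac7 peak at chr15:97662799-97662899.
Hdac5 promoter: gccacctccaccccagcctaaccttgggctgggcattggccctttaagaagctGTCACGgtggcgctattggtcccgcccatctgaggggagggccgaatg
Hdac9 promoter: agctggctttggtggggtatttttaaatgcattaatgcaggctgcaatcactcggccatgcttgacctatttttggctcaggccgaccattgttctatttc
Hdac7 internal start: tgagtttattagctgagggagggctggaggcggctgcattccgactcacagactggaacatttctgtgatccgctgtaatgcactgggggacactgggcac

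The other 2 peaks shown here are in introns of Hdac5. In the first, at chr11:102076249-102076349, capitals mark CAGCTG, the form of the E-box that MyoD and related myogenic bHLH factors prefer. In the second, at chr11:102069236-102069336, capitals mark a match to the MEF2 consensus.
Hdac5 intron, 15.2 kb downstream of the start: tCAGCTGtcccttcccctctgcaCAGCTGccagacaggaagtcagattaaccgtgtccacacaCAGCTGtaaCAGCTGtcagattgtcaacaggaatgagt
Hdac5 intron, 22.2 kb downstream of the start: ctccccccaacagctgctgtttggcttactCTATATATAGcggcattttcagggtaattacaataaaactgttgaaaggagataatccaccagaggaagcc

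The strength of a peak is given as the fold enrichment of ChIP over the local background at the summit, as the authors' peak caller MACS2 computed it. MACS2 derives both the fold and the p-value of a peak from the number of ChIP fragments over the summit and the background expected there, so both numbers could be calculated back from the deposited values. For all 18 peaks, and for 100% of the list, this gave a whole number of ChIP fragments within 0.02. Where several solutions fitted, the one nearest to a whole number was kept, so this outcome was partly built in. The intervals below are exact 95% Poisson intervals of that number with the background held fixed. They cover counting error only, not differences between cultures. Over the whole list the median peak had a fold enrichment of 5.22 and 35 fragments, with quartiles of 4.32-fold and 6.74-fold.

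The 18 peaks at class IIa genes had a median of 5.24-fold and 36 fragments, close to the values of the list. Of them, 10 reached a fold enrichment of 5, against a background of 54.9% of all peaks, so the family as a whole did not stand above the list. The counting intervals of 3 peaks lay wholly above the list's median: the Hdac5 promoter peak, the Hdac5 peak 15.2 kb into the gene and the Hdac9 promoter peak. That of 1 peak, upstream of Hdac4, lay below it, and the intervals of the other 14 included it. The 3 peaks above it were those that reached 8-fold, as did 15.2% of all peaks. Among them, the Hdac5 promoter peak is the one the family was selected on. The share of all peaks with intervals above or below the median was not computed.

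**Figure D1:**
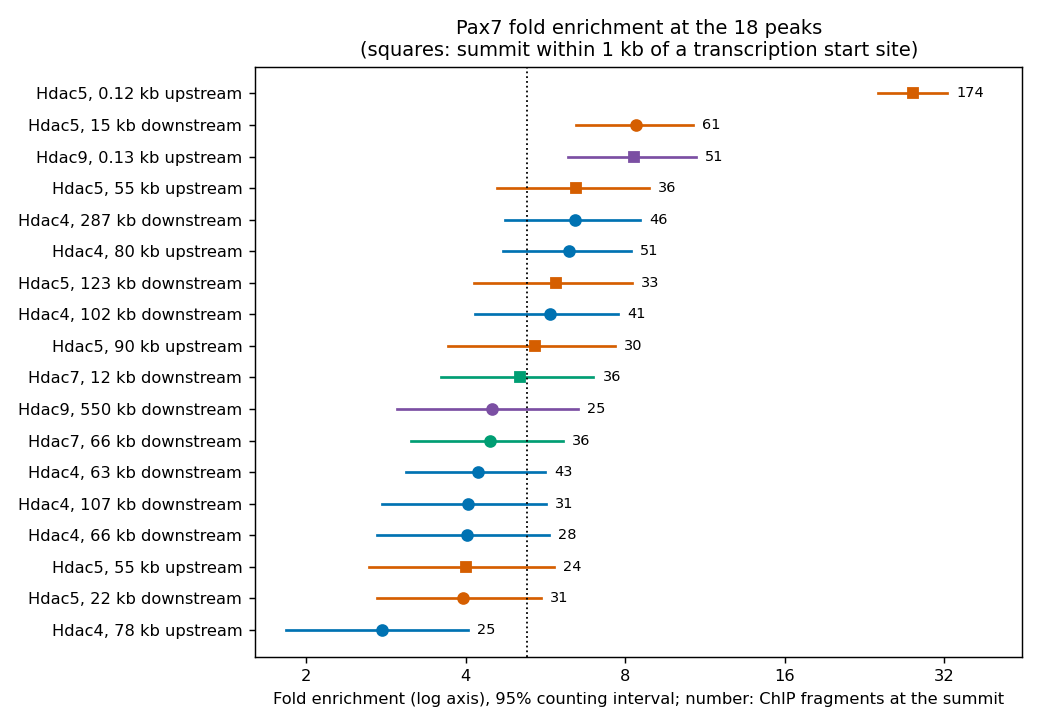
Fold enrichment on a log axis of each of the 18 Pax7 peaks, with its 95% counting interval as a line and the number of ChIP fragments at the summit beside it; peaks are labelled by gene and by distance from that gene's first start site, squares lie within 1 kb of any annotated start site, and the dotted line is the median of all peaks, 5.22. The Hdac5 promoter peak, with 174 fragments, was the value the family was selected on, and 14 of the 18 intervals cross the dotted line.

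Hdac5 (ENSMUSG00000008855.10) lies on chromosome 11 from 102055746 to 102091480 and had the strongest Pax7 binding of the family. The peak at its promoter ran from 102091416 to 102091781, and its summit stood 124 bp upstream of the most upstream Hdac5 start. It held 174 ChIP fragments over a background of 5, which gives 27.97-fold enrichment with an interval of 24.0 to 32.4 and a −log10 q of 177. In fragments it exceeded 99.98% of all peaks, and its fold was the highest in the list. The paired-box core was on the coding strand of Hdac5, centred 5.5 bp from the summit, as the sequence above shows. Across the 7 distinct starts annotated between 102091438 and 102091480, the summit was 124 to 166 bp away, so the choice of start hardly altered its position.

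Hdac5 was first among the 2948 protein-coding genes with a Pax7 peak within 1 kb of a start, as its choice implies. The genes next to it in this order, by the fold enrichment of their strongest promoter peak in the 1 pooled data set, were Arpp21 with 22.0, Snai1 with 21.7, Stk40 with 20.3, Mphosph8 with 19.4 and Spsb1 with 19.2. Snai1 encodes a zinc-finger repressor of epithelial genes. The median over the 2948 genes was 5.06.

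Within the Hdac5 gene there were 2 further peaks, both intronic. The one from 102076164 to 102076517 was 15.2 kb downstream of the first start and 3.94 kb downstream of an internal start. It held 61 fragments and had 8.39-fold enrichment (interval 6.45 to 10.7), which put it above 87.0% of all peaks. Its 101 bases contained CAGCTG 4 times, centred 46.5 and 24.5 bp on one side of the summit and 15.5 and 24.5 bp on the other. Of all 20579 summit windows, 15.7% contained this sequence at least once and 1.31% at least 2 times. Only 5 windows in the list contained it 4 or more times, this one among them. This feature was picked out after the sequence had been seen, and a match is a description of the letters, not of a bound factor.

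The other intronic peak, from 102069229 to 102069407, was 22.2 kb downstream of the first start and weaker, with 31 fragments and 3.95-fold enrichment (interval 2.72 to 5.55). It was above 14.8% of all peaks. The MEF2 consensus was centred 15.5 bp from its summit, and the homeodomain palindrome TAATTA 6.5 bp from it. The MEF2 consensus occurred in 1.46% of all summit windows and in no other peak of the family. It also carried 1 CAGCTG at 37.5 bp. The counting intervals of the pair of intronic peaks did not overlap.

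The remaining 4 peaks counted for Hdac5 stood at the promoters of other genes. Their folds were 6.45 (36 fragments), 4.00 (24 fragments), 5.41 (30 fragments) and 5.93 (33 fragments), and all of their intervals included the list's median. The strongest of them ran from 102145787 to 102146187. The first pair was 357 bp apart, 168 and 76 bp upstream of annotated starts of Tmub2 and 54.6 and 54.95 kb upstream of Hdac5. The third was 622 bp upstream of Ubtf, which encodes a transcription factor of ribosomal RNA genes, and 90.2 kb from the Hdac5 start. The fourth was in an exon of Pyy, the gene of the gut hormone peptide YY, 500 bp from its nearest coding start and 123 kb from that of Hdac5. The Hdac5 neighbourhood is gene-dense, with 11 other protein-coding genes reaching into the window, and these 3 had a promoter peak.

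The paired-box core was found in 3 of the 18 summit windows, against a background of 11.1% of all peaks, and all 3 were in the Hdac5 window. Besides the promoter of Hdac5 they were the peaks at Pyy, with the core 9.5 bp from the summit, and at Ubtf, 20.5 bp from the summit. The Ubtf sequence, at chr11:102181628-102181728, carries the core on the opposite strand to that printed, so that its reverse complement is in capitals.
Ubtf promoter: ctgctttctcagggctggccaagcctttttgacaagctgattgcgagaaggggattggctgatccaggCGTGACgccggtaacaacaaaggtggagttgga

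These 3 peaks differed in strength although all held the core, with 27.97-fold, 5.93-fold and 5.41-fold enrichment. Across the list, peaks with the core had a median of 5.58-fold and those without it 5.13-fold. All 3 were among the 7 family peaks within 1 kb of an annotated start. In the list, 18.6% of peaks near a start had the core and 9.69% of those farther away. In flanks of the same width centred 500 bp to either side of the summits, the core was found in 1.24% and 1.31% of all peaks and in 0 of the 18. The homeobox-plus-paired sequences ATTAGTCAC and ATTAGTCAT and the homeodomain dimer, TAAT and ATTA with 2 bases between them, were in 0 of the 18 windows, against 1.18%, 0.928% and 0.831% of all peaks. The general E-box CANNTG was in 7 of the 18 windows and in 49.7% of all peaks, and in 8 and 7 of the flanks. The control GCACTG, which is no Pax site, was in 3 of the 18 and in 6.86% of all peaks, so a count of 3 is not a result about the family. All searches covered both strands, and each match to ATTAGTCAC also contains GTCAC.

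**Figure D2:**
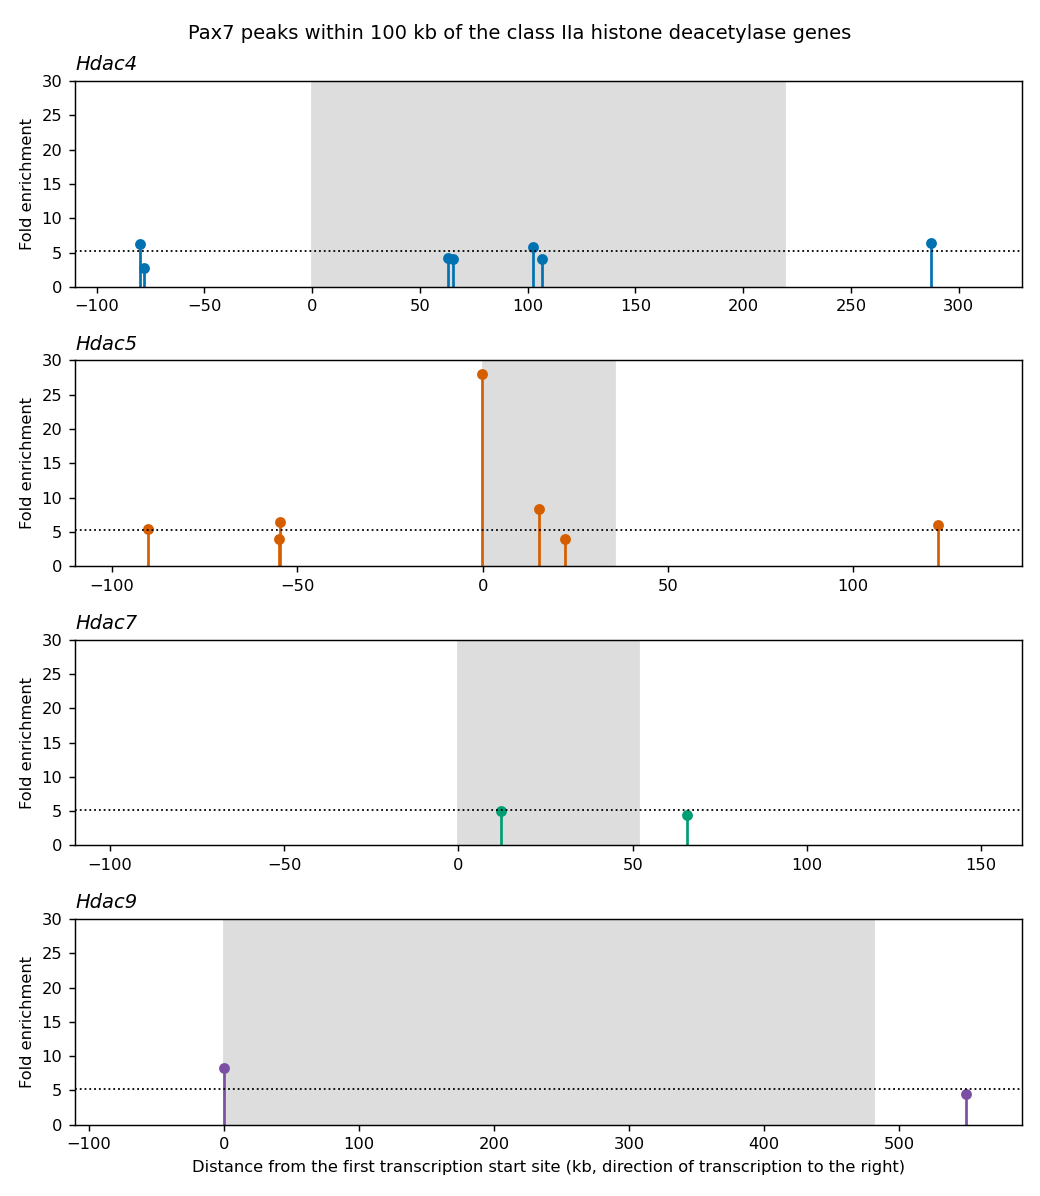
Pax7 peaks along each class IIa gene: the horizontal axis is the distance in kb of the summit from the first annotated start, with the direction of transcription to the right; the vertical axis is fold enrichment, grey marks the gene, and the dotted line is the median of all peaks. Hdac5 and Hdac9 have a peak directly at the first start, Hdac4 has 4 inside the gene, and the 481 kb of Hdac9 hold none.

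Hdac9 (ENSMUSG00000004698.8) lies on chromosome 12 from 34732451 to 35213754 and, like Hdac5, had a Pax7 peak directly before its first annotated start. Besides the full-length protein it encodes a short form without the deacetylase domain that represses MEF2. The peak ran from 35213677 to 35214048, with its summit 132 bp upstream of the start. It held 51 fragments and had 8.32-fold enrichment (interval 6.23 to 10.9) and a −log10 q of 26.8. The fold at Hdac9 was above that of 86.4% of all peaks and stood at 356 in the order of the 2948 promoters. Its interval overlapped that of the Hdac5 intronic peak.

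The promoters of Hdac5 and Hdac9 differed in base composition. Within 150 bp on either side of the summit, Hdac5 had 58.1% G and C and 17 CpG dinucleotides, and Hdac9 had 43.9% and 3. Peaks of the list within 1 kb of a start had medians of 55.6% and 16, and those farther away 44.9% and 4. The Hdac9 promoter summit thus had the composition of a distal peak, and neither GTCAC, the first 5 bases of the core, nor the homeodomain palindrome TAATTA was found within 50 bp of it.

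Between its ends in GENCODE vM1, Hdac9 had no Pax7 peak. Among the 373 protein-coding genes within 1.5 times its length, the median was 3 peaks inside the gene, and 19.8% had 0. The only other peak of its window was 68.3 kb beyond the end of the gene, from 34663993 to 34664302, with 25 fragments and 4.48-fold enrichment (interval 2.96 to 6.52). It was 550 kb from the Hdac9 start and 21.6 kb downstream of the start of Twist1, a bHLH repressor of myogenesis and the only other coding gene in the window. Twist1 itself had no peak within 1 kb of its start. RefSeq, on the later assembly GRCm38.p6, gives Hdac9 a span of 870 kb against 481 kb in GENCODE vM1, and starts outside the vM1 span were not used here. Whether the peak at the first vM1 start lies inside the longer RefSeq gene was not examined. On mm9 the next peak upstream of the gene was 493 kb away, with 5.28-fold enrichment.

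Hdac7 (ENSMUSG00000022475.11), which is best known from thymocytes and blood vessels, had the lowest maximum fold of the family. It lies on chromosome 15 from 97623095 to 97674933. Its first start had no peak within 1 kb, and the nearest summit was 12.1 kb away inside the gene. That peak, from 97662763 to 97662965, had 36 fragments and 5.07-fold enrichment (interval 3.60 to 6.97). It stood 651 bp upstream of an internal protein-coding start, one of 4 distinct starts between 97661900 and 97662198, and therefore counted as a promoter peak. In the promoter order Hdac7 was at 1420. The second peak, from 97609135 to 97609348, was 65.7 kb downstream of the first start and had the same 36 fragments over a higher background, 7 against 6, which made it 4.44-fold (interval 3.15 to 6.10). It was 5.54 kb upstream of Slc48a1, a heme transporter gene, which is nearer than Hdac7. The intervals of the 2 Hdac7 peaks overlapped widely, and both included the median of the list.

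**Figure D3:**
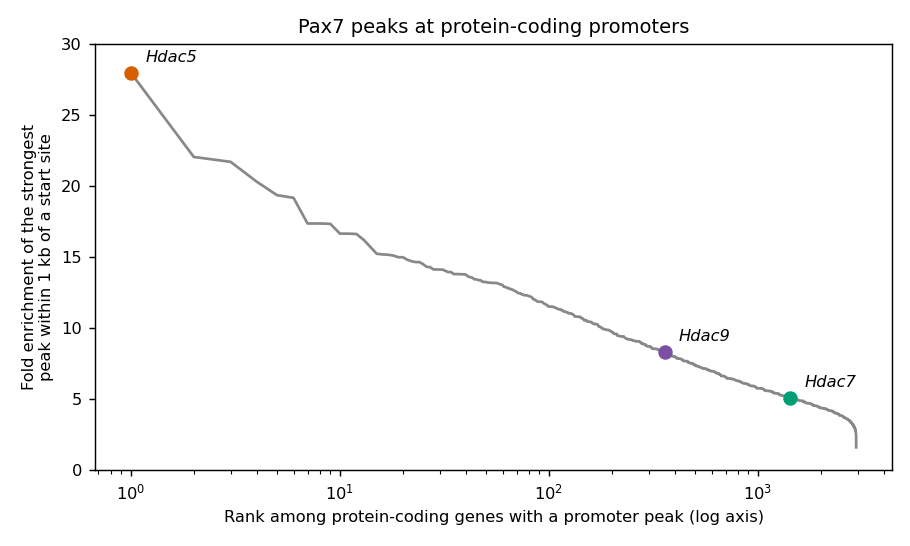
Fold enrichment of the strongest Pax7 peak within 1 kb of a start site for each of the 2948 protein-coding genes that have one, ordered from the highest to the lowest on a log axis of rank. Hdac5, picked for this value, is first at 27.97, Hdac9 is at 356 with 8.32 and Hdac7 at 1420 with 5.07; Hdac4 has no promoter peak and is absent.

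Altogether 3 of the 4 genes had a Pax7 peak within 1 kb of a start, against a background of 13.3% of protein-coding genes. This comes with the reservation that Hdac5 was picked for such a peak and Hdac7 counted through an internal start. Hdac9 counted through its first start in GENCODE vM1, and RefSeq gives that gene a longer span. Among the peaks themselves, 7 of the 18 lay within 1 kb of any annotated start (16.3% of all peaks) and the same 7 within 1 kb of a protein-coding start (13.9%). Of these 7, only the 3 just described were at class IIa genes.

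Hdac4 (ENSMUSG00000026313.8, with a second small entry under the same symbol, ENSMUSG00000073617.2) spans chromosome 1 from 93825362 to 94044970, and its Pax7 peaks were distal. In skeletal muscle Hdac4 is known for its response to loss of nerve input. Its 3 annotated starts were 34.7, 63.0 and 69.9 kb from the nearest summit. The 7 peaks ranged from 2.77-fold to 6.44-fold, with a median of 4.22-fold and between 25 and 51 fragments, and 3 of them reached 5-fold.

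Inside Hdac4 there were 4 peaks, all intronic, which formed 2 pairs. The first pair, 63.0 and 65.6 kb downstream of the first start and 2.56 kb apart, had 43 and 28 fragments and folds of 4.22 and 4.03. The 43 fragments stood over a background of 9, the highest of the family. The second pair, 102 and 107 kb downstream and 4.41 kb apart, had 41 and 31 fragments and folds of 5.76 and 4.04, the stronger running from 93942373 to 93942630. All of these intervals overlapped each other and the list's median. Among the 1014 protein-coding genes of similar length, the median was 2 peaks inside the gene, and 73.2% had fewer than 4.

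Upstream of Hdac4 lay a pair of intergenic peaks 1.76 kb apart. The farther one, 80.0 kb from the start, from 94124848 to 94125104, had 51 fragments and 6.27-fold enrichment (interval 4.70 to 8.20). The nearer one, 78.3 kb away, had 25 fragments over a background of 8 and was the weakest of the family at 2.77-fold (interval 1.83 to 4.04). Only 0.685% of all peaks had a lower fold. Hdac4 was the nearest coding gene to both. The stronger summit, shown for chr1:94124939-94125039, carries TAATTA followed by GTCAC 2 times, all in capitals, within 25 bp of the summit.
Hdac4, 80.0 kb upstream: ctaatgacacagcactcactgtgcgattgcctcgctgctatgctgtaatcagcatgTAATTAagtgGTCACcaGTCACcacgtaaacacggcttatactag

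The shorter sequences GTCAC and TAATTA were searched after the summits had been seen. GTCAC was in 6 of the 18 windows and in 31.9% of all peaks, and TAATTA in 3 of the 18 and in 6.13% of all peaks. Among the 18, only the 80.0 kb peak of Hdac4 had both.

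Downstream of Hdac4, 287 kb from its first start, was the strongest peak of the gene by fold, from 93757650 to 93757995, with 46 fragments and 6.44-fold enrichment (interval 4.76 to 8.55). It had a GTCAC on the opposite strand 20 bp from the summit. It was 59.8 kb downstream of the start of Twist2, the second Twist gene of the mouse, and Twist2 was the only other coding gene in the window. The windows of Hdac4 and of Hdac9 thus each ended at a Twist gene, each with 1 peak nearest to it, and neither Twist gene had a promoter peak.

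Of the 18 peaks, 7 were inside the genes, 7 upstream and 4 downstream, and for 11 the nearest protein-coding start belonged to the class IIa gene. This share was 6 of 7 at Hdac4, 3 of 7 at Hdac5, 1 of 2 at Hdac7 and 1 of 2 at Hdac9. It was not computed for protein-coding genes at large. The windows also differed in other coding genes, with 1 at Hdac4, 11 at Hdac5, 6 at Hdac7 and 1 at Hdac9. Peaks outside the genes can act on other genes, and no contact or expression data were analysed here. At the edge of the rule, the outermost included peaks were 90.2 and 87.1 kb from Hdac5, with 5.41-fold and 5.93-fold enrichment. The nearest excluded ones were 134 and 157 kb downstream of Hdac7, with 5.13-fold and 4.68-fold.

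Per length of window, the Hdac5 window held the most peaks and that of Hdac9 the fewest. Hdac5 had 29.7 peaks per Mb, Hdac4 had 16.7, Hdac7 had 7.94 and Hdac9 had 2.94. The sequenced genome had 8.05 per Mb, and the median protein-coding window had 9.16. In this density Hdac5 exceeded 95.3% of protein-coding windows and Hdac9 25.5%. The density counts every peak of the window. An Hdac5 start was the nearest coding start for 3 of the 7 peaks there, against 6 of 7 at Hdac4. Those 3 include the promoter peak on which the family was selected. All 4 genes had a peak in the window, against 75.2% of protein-coding genes, and 3 had one inside the gene, against 22.4%. Genes of 100 kb or longer, such as Hdac4 and Hdac9, had a peak inside in 70.3% of cases. The share of 22.4% covers genes of all lengths. Among protein-coding genes within 1.5 times the length of the member, the share with 0 peaks inside was 25.8% for Hdac4 and 73.6% for Hdac5. It was 65.4% for Hdac7 and 19.8% for Hdac9.

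**Figure D4:**
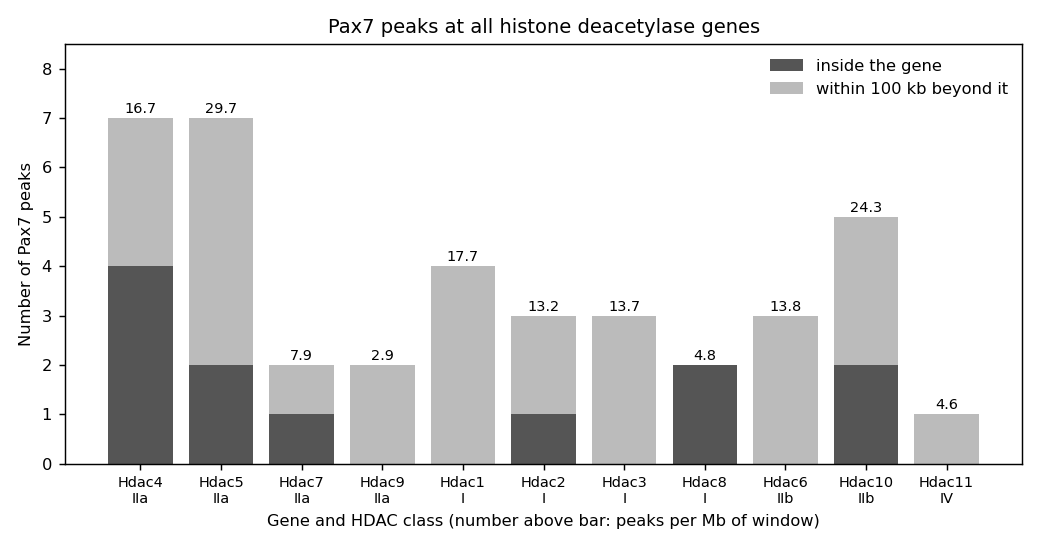
Number of Pax7 peaks at each of the 11 histone deacetylase genes, split into peaks inside the gene (dark) and within 100 kb beyond it (light), with peaks per Mb of window above each bar. Hdac4 and Hdac5 have 7 each, above Hdac10 with 5 and Hdac1 with 4, while Hdac7 and Hdac9 have 2 each.

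The other 7 histone deacetylase genes had 21 Pax7 peaks under the same rule, between 1 at Hdac11 and 5 at Hdac10. Pooled over their windows, the 4 class IIa genes had 11.3 peaks per Mb. Class I, the ubiquitous deacetylases Hdac1, Hdac2, Hdac3 and Hdac8, had 11.0. Class IIb, the cytoplasmic enzymes Hdac6 and Hdac10, had 18.9, and Hdac11 had 4.59. Of these 7, 1 had a peak within 1 kb of a start, Hdac10 at 8.02-fold, against 13.3% of protein-coding genes. The highest fold in any of their windows was 13.8, at Hdac2. With 4 genes against 7 and 1 pooled list, these numbers are given side by side and no difference was tested.

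Genes whose products work with class IIa deacetylases are given beside protein-coding genes at large, of which 75.2% had a Pax7 peak in the window, with a median of 9.16 per Mb. Among the MEF2 factors that class IIa deacetylases repress, Mef2c had 5 peaks, Mef2d had 4, Mef2a had 2 and Mef2b had 0. Pooled, the 4 MEF2 genes had 9.57 peaks per Mb, and the promoter peaks of Mef2a and Mef2c reached 4.35-fold and 4.16-fold. The highest fold in a MEF2 window was 15.2, in that of Mef2d, which had no peak inside the gene or within 1 kb of a start. The strongest promoter peak of another gene, Iqgap3, had the same fold of 15.2. Whether it is the peak counted for Mef2d was not examined. Among corepressor genes, Ncor1 had 5 peaks, up to 7.40-fold, Tbl1xr1 had 3 and Tbl1x had 1. The 9 kinase genes had 43 peaks, or 14.6 per Mb, with 8 each at Prkd2 (protein kinase D2) and Camk2g (a CaM kinase II), and the highest fold, 15.99, was in the window of Prkd2. The 6 genes of 14-3-3 proteins had 17 peaks, or 12.7 per Mb, from 0 at Ywhah to 5 each at Ywhae and Ywhag.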

How the data were processed

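ChIP-seq for Pax7 comprised 2 ChIP libraries and 2 inputs. The authors used bowtie2 for alignment to mm9, discarded reads without a unique position as well as duplicates (Picard), pooled the libraries of each kind, and ran MACS2 2.1.1 with 0.01 as the q limit. Removal of duplicates lets each read position count once, which limits the strongest peaks. The deposited list gives per peak the fold (a ratio of ChIP to local background at the summit), −log10 of the p-value and q-value by the authors, and a score, which is 10 times that q measure cut to a whole number. It holds no per-library depth.

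Peaks were placed on NCBIM37 and GENCODE vM1 by summit, and coordinates are 1-based. For each protein-coding gene, all entries of its symbol were joined, and 22206 genes were counted. ChIP fragments were solved from fold = (n + 1)/(λ + 1) and the Poisson p of more than n, where 1 fragment counted as 0.959 after scaling. That scaling value was the one that brought the solutions nearest to whole numbers. The recovered background had a floor of 4.50, at which 23.7% of peaks stood. Motif searches covered 50 bp on each side of a summit and both strands. Named peaks were those within 1 kb of a start of a member and the 3 strongest of each gene. Further peaks, such as the weaker intronic Hdac5 peak and that at Ubtf, were described for their sequence after their values were seen. The members and lists were chosen with earlier results of these data known. One entry of the partner lists is not reported here. RefSeq was used for gene spans only. The software was Python 3.11.15 with scipy 1.17.1, numpy 2.4.6, pandas 2.3.3, matplotlib 3.10.9 and pysam 0.24.0. No test was run, since 1 pooled list has no replicates. Alternative windows, thresholds, motif widths and formulas were tried.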

Additional observations from a re-analysis of the deposited data

How the results depend on the processing

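No paired analysis was possible because the deposited peaks were called on merged libraries, and for the same reason no library could be left out. In 42 recomputed values, 26 stayed within 1.5 times or the counting interval of the reported value, and 16 moved. A fold enrichment of at least 5 left 10 of the 18 peaks, 3 at Hdac4, 5 at Hdac5, 1 at Hdac7 and 1 at Hdac9. Windows of 25 kb and of 50 kb both left 10 peaks, 4 at Hdac4, 3 at Hdac5, 2 at Hdac7 and 1 at Hdac9. Taking only peaks whose nearest coding start is that of the member left 11. A −log10 q of at least 5, any overlap of 1 bp, and merging within 500 bp left 17, 18 and 17. With a fold of 4 or 6 as the limit, 16 or 6 peaks passed. GTCAC in place of GTCACG, chosen after seeing the data, was found in 6 peaks. Without the pseudocount of 1, the Hdac5 promoter peak came out at 198.9 fragments, but 7.86% of peaks then gave a whole number. With a p of at least the observed pileup it had no solution.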
